A study of Mus musculus with 6 samples.

Results

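The myeloid growth factor receptors described here are the 10 mouse genes Csf3r, Csf2ra, Il3ra, Il6ra, Csf2rb, Csf2rb2, Il6st, Csf1r, Kit and Flt3, taken by name, with no threshold on a measured value. They are 10 of the 53458 genes over which transcripts were summed, and all 10 were among the 20654 genes that passed the filter on low counts. RNA was sequenced from blasts of mice with acute myeloid leukemia, in 3 libraries per group. The first group (WT) was Cebpa-/p30 with wild-type Asxl1, and the second (G643W) was Cebpa-/p30 with the G643W change in both Asxl1 alleles. Both groups therefore carried 1 lost Cebpa allele and 1 that gives only the short p30 form of C/EBPα, and no library had wild-type Cebpa. The blasts came from the marrow of transplanted C57/BL6 mice and were sorted as CD45.2+, negative for B220, CD3 and Ter119, and low for Gr1 and Mac1. The labels give no treatment or age, and number the libraries without saying which trace to separate primary leukemias, so p-values measure only the spread between these libraries, which may be technical. The question put to the data is which receptors differ with Asxl1 genotype when Cebpa is mutant throughout.

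These receptors carry the signals that let marrow progenitors survive, divide and mature along the granulocyte and monocyte lines. Most belong to the cytokine receptor family: a ligand is bound by its own chain, often with a second, shared chain, and Janus kinases held at the tails of the chains then phosphorylate STAT factors. Csf1r, Kit and Flt3 instead have a tyrosine kinase in their own tails. C/EBPα is best known in this setting as an activator of receptor genes such as Csf3r and Il6ra.

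Totals ranged from 61167075 to 101189225 estimated reads. Levels are given as CPM, read counts scaled to a common library total by TMM, for comparisons of 1 gene across libraries, and as TPM, which also corrects for transcript length, for comparisons between genes. Asxl1 was at 86.5, 54.5 and 73.8 CPM in WT libraries 1 to 3 and at 103, 164 and 147 CPM in G643W libraries 1 to 3, a level that does not read the base change itself. Ptprc, which encodes CD45, lay between 365 and 1084 CPM in the 6 libraries. Cd3e, a marker of T cells, lay under 1 CPM throughout. Itgam, which encodes a chain of Mac1, ranged from 314 to 2213 CPM, and Ly6g, part of the Gr1 epitope, from 3.71 to 347 CPM, so the libraries differed widely in genes of the gate itself.

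None of the 10 receptor genes passed the threshold in the edgeR test over all genes (adjusted p under 0.05), where 0.121% of the genes tested did, 0.0533% higher and 0.0678% lower in G643W. Without adjustment 3 receptors had p under 0.05 (Flt3, Csf2rb2 and Il3ra), against 9.66% of all genes. Flt3 and Il6ra were lower in every G643W library than in any WT library, a pattern of 8.89% of genes, and Csf2rb2 was higher in every G643W library, a pattern of 7.05%. DESeq2, run as an alternative, called 2 of the 10, Flt3 lower and Csf2rb2 higher, where it called 1.27% of all genes lower and 0.794% higher. The median log2 difference of the receptors (G643W minus WT) was -0.37, beside -0.01 for all genes tested, and was -0.24 without WT library 1 and -0.65 without G643W library 1. In simulated counts with the spread of these libraries edgeR recovered 0% of the 2-fold changes and 18% of the 4-fold changes. It recovered 30% of the 8-fold and 62% of the 16-fold changes. The changed genes were drawn from all genes tested. Most changes of 2-fold to 4-fold in such genes would be missed with 3 libraries a group, and the rate for the receptors themselves was not measured. As in any bulk sample, fewer cells that express a receptor and less of its RNA per cell cannot be told apart.

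**Figure D1:**
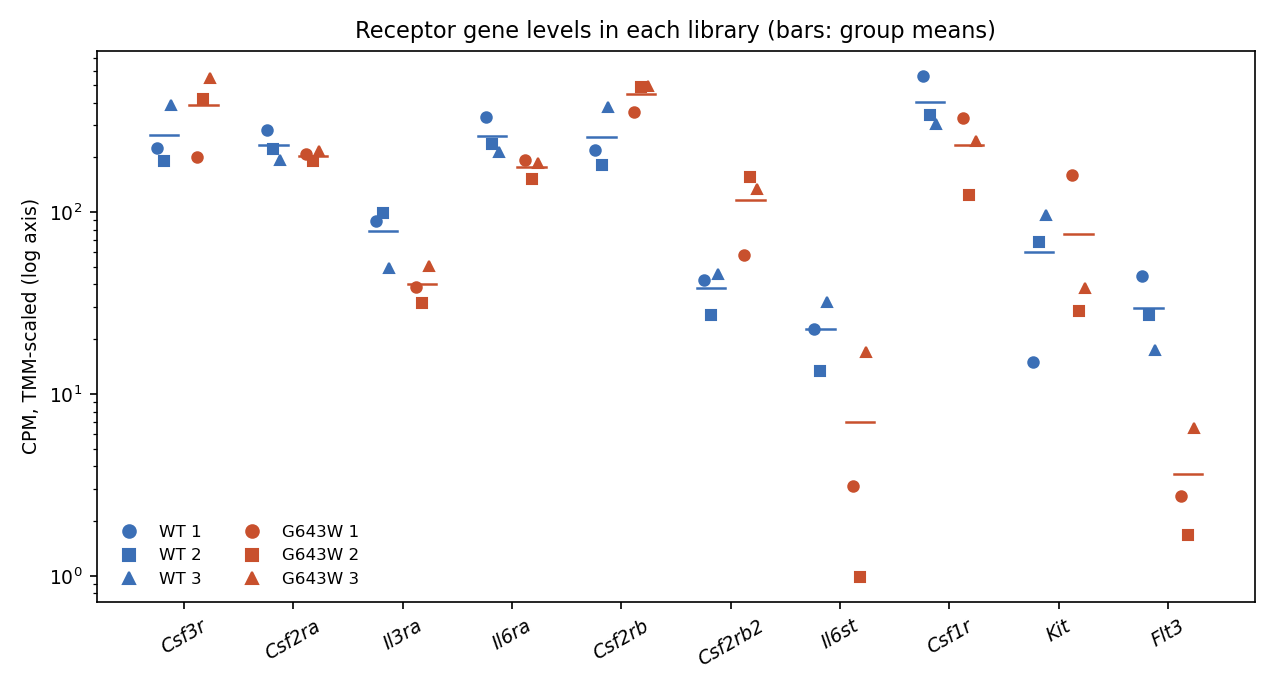
Level of each receptor gene in each library in TMM-scaled CPM on a log axis, with WT in blue, G643W in red, marker shape for the library number and bars for group means. The 3 G643W points lie below all WT points for Flt3 and Il6ra and above them for Csf2rb2, and overlap the WT points for the other genes.

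Csf3r (ENSMUSG00000028859; GRCm38, chr4:126024550-126044440, plus strand) encodes the receptor for G-CSF, the growth factor of neutrophils, which works as a pair of identical chains. It was at 224, 190 and 386 CPM in WT libraries 1 to 3 and at 201.4, 419 and 547 CPM in G643W libraries 1 to 3. WT library 3 and G643W libraries 2 and 3 were the high ones, so the groups overlapped. The means were 267 ± 105 and 389 ± 175 CPM (SD, n = 3 each), which differed by 0.54 ± 0.44 on the log2 scale (± SE) with an adjusted p = 0.642 in edgeR. The same 3 libraries were the highest for the summed neutrophil markers, which are given with the other cell type lists. With the neutrophil marker level as a covariate, a fit chosen with the data already in view, the Csf3r difference was 0.03 ± 0.30.

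The next receptor genes encode chains that each bind their own ligand. Csf2ra (ENSMUSG00000059326; chr19:61223957-61228429, minus strand), the ligand-binding chain for GM-CSF, was the steadiest receptor, its highest library being 1.49 times its lowest. It lay at 284, 221 and 193 CPM in the WT libraries and at 208, 191 and 215 CPM in the G643W libraries. The groups overlapped, with means of 233 ± 46.6 and 205 ± 12.6 CPM and a log2 difference of -0.19 ± 0.22 (edgeR adjusted p = 0.748). The tables held 1 of the 8 Csf2ra transcripts of the annotation, so the levels of the others are not in these values.

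Il3ra (ENSMUSG00000068758; chr14:14346275-14356011, plus strand), the ligand-binding chain for interleukin 3, was at 89.3, 98.9 and 49.2 CPM in the WT libraries. The G643W libraries had 39.0, 31.5 and 50.5 CPM. WT libraries 1 and 2 stood above the rest, while WT library 3 lay just under G643W library 3. The means of 79.1 ± 26.4 and 40.3 ± 9.56 CPM gave a log2 difference of -0.97 ± 0.32 (edgeR adjusted p = 0.488).

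Il6ra (ENSMUSG00000027947; chr3:89864059-89913196, minus strand) encodes the chain that binds interleukin 6 and is also released from cells in soluble form. Its WT libraries were at 334, 237 and 213 CPM and its G643W libraries at 193, 153 and 186 CPM. Every G643W library was below every WT library in CPM. The difference was small, -0.56 ± 0.25 on the log2 scale between means of 261 ± 64.3 and 177 ± 21.6 CPM, and did not pass the test (edgeR adjusted p = 0.524). In TPM the groups overlapped, with WT library 2 at 17.7 and G643W library 1 at 18.8. Both Il6ra transcripts in the tables were likewise lower without overlap in CPM but not in TPM, and the longer one held 31.9% to 41.4% of their TPM in each library.

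The remaining cytokine receptor genes encode shared chains. Csf2rb (ENSMUSG00000071713; chr15:78325752-78353847, plus strand) is the signalling chain of the receptors for GM-CSF, interleukin 3 and interleukin 5. Csf2rb2 (ENSMUSG00000071714; chr15:78282507-78305721, minus strand) is its neighbouring copy in mice, whose product serves interleukin 3 alone. The coding sequences of Csf2rb (2691 bases) and Csf2rb2 (2637 bases) aligned over 2631 bases with 126 mismatches, an identity of 95.2%. A stretch of 120 bases near the start, with its 18 mismatches in capitals, is shown to let differences between the copies be seen. It holds more mismatches for its length than the alignment as a whole. It begins at base 298 of the Csf2rb and base 301 of the Csf2rb2 coding sequence in the GENCODE M21 transcripts:
Csf2rb: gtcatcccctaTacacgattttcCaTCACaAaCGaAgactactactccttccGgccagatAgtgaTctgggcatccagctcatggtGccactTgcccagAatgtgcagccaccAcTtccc
Csf2rb2: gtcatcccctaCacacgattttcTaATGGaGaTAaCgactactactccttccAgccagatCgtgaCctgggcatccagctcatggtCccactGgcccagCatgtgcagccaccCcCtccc
Other stretches were identical: of all 31-base words of the main Csf2rb transcript 28.9% also occurred in Csf2rb2. Salmon divides reads from such stretches by a model, so the level of each copy is less certain than their sum.

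Csf2rb was at 220, 182 and 377 CPM in WT libraries 1 to 3 and at 356, 486 and 491 CPM in G643W libraries 1 to 3. Only WT library 3 reached the G643W range. The means were 259 ± 103 and 444 ± 76.2 CPM, a log2 difference of 0.78 ± 0.33 (edgeR adjusted p = 0.511). Csf2rb2 was at 42.3, 27.3 and 45.4 CPM in the WT libraries and at 58.4, 156 and 133 CPM in the G643W libraries. All 3 G643W libraries were above the WT ones, libraries 2 and 3 by far the most. Its log2 difference was 1.6 ± 0.40, with means of 38.3 ± 9.70 and 116 ± 51.0 CPM. This did not pass edgeR's test (adjusted p = 0.409) and passed that of DESeq2 (log2 1.63, adjusted p = 0.0421).

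Summed over both copies, which sets aside the division of reads between them, the WT libraries held 262, 209 and 422 CPM and the G643W libraries 415, 642 and 624 CPM. WT library 3 was again the one that overlapped the G643W range. The sum differed by 0.91 ± 0.34 on the log2 scale (edgeR adjusted p = 0.498). Csf2rb2 took 16.1%, 13.05% and 10.8% of the reads of both in the WT libraries and 14.1%, 24.3% and 21.4% in the G643W libraries, so its share was highest in G643W libraries 2 and 3. With the neutrophil marker level as a covariate the differences were 0.53 for Csf2rb and 1.12 for Csf2rb2 (edgeR adjusted p = 0.695 for Csf2rb2).

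Il6st (ENSMUSG00000021756; chr13:112464070-112510086, plus strand) encodes gp130, the signalling chain shared by interleukin 6 and its relatives. It was at 22.6, 13.4 and 31.9 CPM in the WT libraries and at 3.11, 0.989 and 17.0 CPM in the G643W libraries. G643W libraries 1 and 2 were far below the rest, while G643W library 3 lay within the WT range. The means of 22.6 ± 9.21 and 7.05 ± 8.72 CPM gave a log2 difference of -1.68 ± 0.95 (edgeR adjusted p = 0.563). Leaving out each library in turn moved it between -3.47 and -1.16. With the neutrophil marker level as a covariate it was larger in size, -2.14 ± 1.11, while the differences of all other receptors became smaller.

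Csf1r (ENSMUSG00000024621; chr18:61100598-61132149, plus strand) encodes the receptor kinase for M-CSF and interleukin 34, which marks monocytes and macrophages. It was at 561, 341 and 305 CPM in the WT libraries and at 328, 124 and 247 CPM in the G643W libraries. WT library 1 was the highest and G643W library 2 the lowest, and G643W library 1 lay within the WT range. The log2 difference was -0.79 ± 0.41 between means of 403 ± 139 and 233 ± 103 CPM (edgeR adjusted p = 0.546). It was -0.41 with the neutrophil marker level as a covariate, and the tables held 2 of the 6 annotated Csf1r transcripts.

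Kit (ENSMUSG00000005672; chr5:75574916-75656722, plus strand), the receptor kinase for stem cell factor and a mark of immature and mast cells, varied widely within both groups. Its levels were 15.0, 68.5 and 96.5 CPM in WT libraries 1 to 3 and 160, 28.8 and 38.1 CPM in G643W libraries 1 to 3. Both the lowest value, in WT library 1, and the highest, in G643W library 1, stood apart from their own groups. The means were 60.0 ± 41.4 and 75.8 ± 73.4 CPM, and the log2 difference of 0.34 ± 0.83 (edgeR adjusted p = 0.886) had no stable direction. It turned to -0.13 without WT library 1 and to -0.76 without G643W library 1.

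Flt3 (ENSMUSG00000042817; chr5:147330741-147400489, minus strand), the receptor kinase of early progenitors and of the dendritic cell line, differed most between the genotypes. It was at 44.7, 27.1 and 17.6 CPM in WT libraries 1 to 3, from 3399, 1913 and 1321 reads. In G643W libraries 1 to 3 it was at 2.73, 1.67 and 6.48 CPM, from 187, 149 and 481 reads. No G643W library came near the WT range, although the lowest WT and highest G643W libraries were both number 3. The means were 29.8 ± 13.8 and 3.63 ± 2.53 CPM, a log2 difference of -3.04 ± 0.61. This did not pass edgeR's test over the 20654 genes (adjusted p = 0.298) and passed that of DESeq2 (log2 -3.02, adjusted p = 0.00018). It also passed edgeR without the filter on low counts (adjusted p = 0.0221), a setting that called 1 of the 10 receptors and 0.237% of all genes, 0.153% lower.

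**Figure D2:**
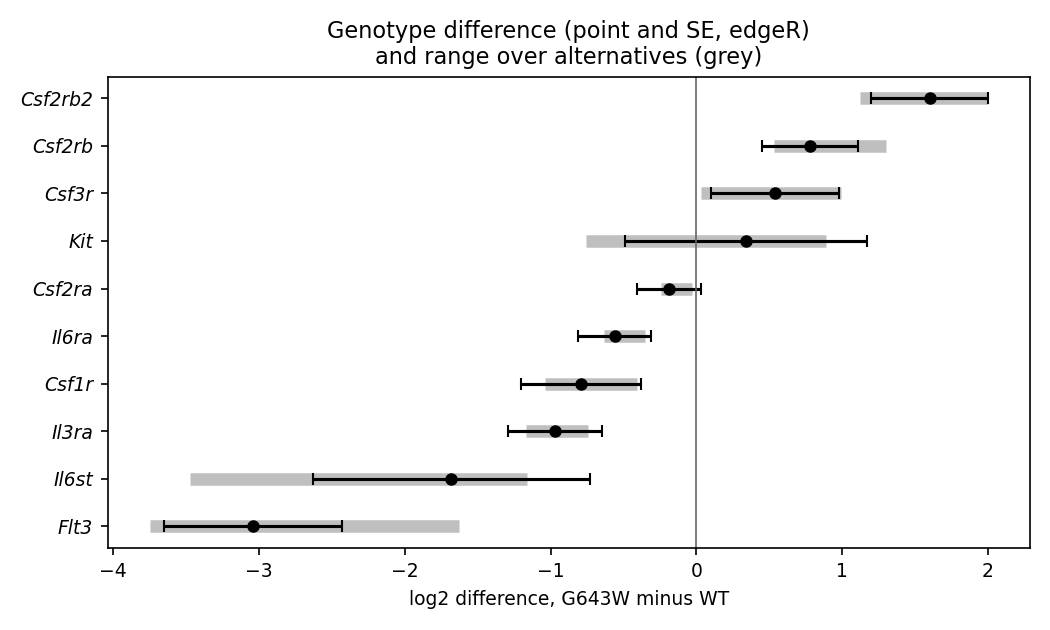
Log2 difference of each receptor gene, G643W minus WT, from edgeR (black point, with the SE as whiskers) and the range of the same value over 16 alternative settings (grey bar). Csf2rb2, Csf2rb and Csf3r stay above 0 and Csf2ra, Il6ra, Csf1r, Il3ra, Il6st and Flt3 below it in all of these settings, while the bar of Kit crosses 0.

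Counted by transcript, the receptors had 48 transcripts in the tables, of which 45 had reads and 37 passed the filter. None of the 37 passed the edgeR threshold, where 0.0085% of all transcripts tested did, and 6 had an unadjusted p under 0.05 (7.15% of all transcripts). DESeq2 called 2 of them, the main Flt3 transcript and Il3ra-206, both lower, which are named here after their values were seen. By the same test 1.78% of all transcripts were called, 1.05% lower. That Flt3 transcript, of 24 exons, had 5.67, 3.11 and 2.18 TPM in WT libraries 1 to 3, against 0.344, 0.176 and 0.823 TPM in G643W libraries 1 to 3. It was thus lower in every G643W library, as the gene was, with an edgeR log2 difference of -3.20 ± 0.66 (adjusted p = 0.343). Among the 37, the groups did not overlap in CPM for 3 higher transcripts (7.6% of all transcripts), 2 of Csf2rb and 1 of Csf2rb2. They did not overlap for 6 lower ones (8.72% of all), of Csf1r, Il6ra, Il3ra and Flt3. The Csf2rb transcripts among these were short, of 328 and 340 bases, and the main Csf2rb transcript overlapped. The Csf1r transcript, Csf1r-202, held from 1.26% to 2.73% of the gene's TPM in each library, and the main one, Csf1r-201, overlapped.

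Kit is spliced into a pair of long forms that differ by 12 bases at the end of exon 9 (GRCm38, chr5:75639147-75639158, plus strand), an in-frame stretch of 4 codons just outside the membrane. The forms are known to signal with different strength. The sequences across the junction, with the extra bases of Kit-201 in capitals, were taken from the GENCODE M21 transcripts:
Kit-201: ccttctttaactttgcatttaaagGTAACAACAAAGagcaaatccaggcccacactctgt
Kit-204: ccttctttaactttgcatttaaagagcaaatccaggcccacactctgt
Kit-204, which lacks these bases, made up 77.2%, 76.3% and 45.3% of the TPM of both forms in WT libraries 1 to 3. The G643W libraries had 44.1%, 48.2% and 45.7%. WT libraries 1 and 2 were thus high, and WT library 3 lay among the G643W libraries, so the groups overlapped. Kit-204 is also 39 bases longer at its 5′ end, and how many reads cover either difference is unknown, so these shares are model estimates without an interval. They were looked at after the transcript values had been seen and carry no test.

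Il3ra has a full-length form, Il3ra-201, and a form without exon 3 (chr14:14347914-14348068) and exon 4 (chr14:14348821-14348944), Il3ra-205. The skipped exons hold 279 bases, or 93 codons, near the start of the protein. The exon junctions are shown because they are what separates the forms, with the end of exon 2 in lower case and the start of the next exon in capitals:
Il3ra-201: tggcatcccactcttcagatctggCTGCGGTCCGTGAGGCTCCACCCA
Il3ra-205: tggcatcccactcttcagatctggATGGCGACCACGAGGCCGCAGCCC
Il3ra-205 held 88.0%, 91.0% and 84.0% of the TPM of these 2 forms in the WT libraries and 66.9%, 87.7% and 84.4% in the G643W libraries. It was the larger form in all 6 libraries. G643W library 1 was the lowest and stood apart, and the other G643W libraries lay within the WT range. In that library another form, Il3ra-202, was given 0 reads, against 235.2 to 598.5 in the other libraries. These shares too are model estimates without an interval, and carry no test.

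**Figure D3:**
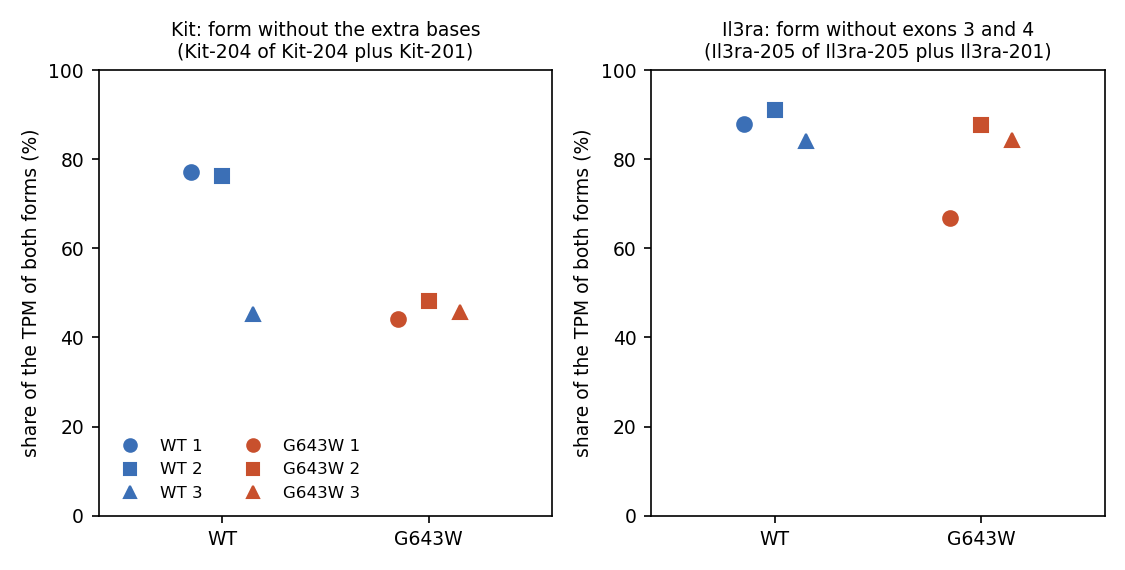
Share of the TPM of both forms, in percent, taken by the Kit form without the 12 extra bases (left) and by the Il3ra form without exons 3 and 4 (right), with 1 point per library. The Kit shares of WT libraries 1 and 2, at 77.2% and 76.3%, lie apart from the other 4, which sit between 44.1% and 48.2%.

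Levels were then set against each other per length, as summed TPM of the coding transcripts of at least 1000 bases. Shorter transcripts were left out because a few reads on them give a high TPM: in Il6st the longer transcripts had 98.6% of the reads but only 20.2% of the summed TPM. Csf2ra ranked highest in both groups, at 52.8 ± 10.7 TPM in WT and 51.0 ± 6.53 in G643W. Csf1r followed in WT at 44.1 ± 16.3, ahead of Csf3r at 31.3 ± 13.02 and Csf2rb at 23.5 ± 10 TPM. In G643W this order was Csf3r at 47.4 ± 21.1, Csf2rb at 41.3 ± 6.09 and Csf1r at 27.5 ± 13.6 TPM. Il6ra came next in both, at 22.1 ± 6.06 TPM in WT and 16.5 ± 3.20 in G643W.

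The low end of the order held 5 receptors. Il3ra was at 18.3 ± 5.80 TPM in WT and 9.78 ± 2.64 in G643W. Kit was at 4.36 ± 3.40 and 6.69 ± 6.20 TPM and Il6st at 1.65 ± 0.768 and 0.532 ± 0.649 TPM. Csf2rb2 was at 3.64 ± 1.14 TPM in WT and 11.3 ± 4.57 in G643W, and moved from rank 9 to rank 6. Flt3, at 3.65 ± 1.81 TPM in WT, took rank 8 there and was last in G643W at 0.448 ± 0.336 TPM. The libraries of neighbours in the order overlapped throughout, except between Il3ra and Kit in WT and between Kit and Il6st in G643W.

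Ratios of receptors within a library set the genes of a shared complex or of alternative lineages against each other, on the TPM of all transcripts of a gene. Each of the 5 ratios was given an exact two-sided permutation test over the libraries. With 3 against 3 the smallest p of that test is 0.1, so none could pass. The log2 ratio of Csf2ra to the summed Csf2rb and Csf2rb2 was 0.39, 0.53 and -1.0 in the WT libraries and -1.07, -1.70 and -1.40 in the G643W libraries. For Il3ra against the same sum it was -0.10, 0.53 and -1.87 in WT and -2.45, -3.21 and -2.43 in G643W. In both ratios every G643W library was below every WT library, WT library 3 being the nearest to them (exact permutation p = 0.1 each, adjusted over the 5 ratios p = 0.25). On coding transcripts of at least 1000 bases alone, a choice made after seeing the data, the groups of the Csf2ra ratio overlapped (exact p = 0.2), and those of the Il3ra ratio did not (exact p = 0.1).

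The log2 ratio of Csf1r to Csf3r, the monocyte against the granulocyte receptor, was 0.36, -0.17 and -1.36 in WT and -0.27, -2.76 and -2.17 in G643W (exact p = 0.2). Flt3 against Kit gave 1.45, -1.90 and -2.98 in WT and -6.55, -4.45 and -2.53 in G643W (exact p = 0.2). On coding transcripts of at least 1000 bases the Flt3 to Kit groups did not overlap, at 2.57, -0.49 and -1.83 in WT and -5.33, -3.80 and -2.21 in G643W (exact p = 0.1). Il6ra against Il6st gave 2.41, 1.75 and 0.55 in WT and 4.07, 3.74 and 1.54 in G643W (exact p = 0.3). Short Il6st transcripts lower these values. On coding transcripts of at least 1000 bases this ratio was 4.07, 4.38 and 3.04 in WT. In G643W it was 6.16, 7.76 and 3.81, and the groups still overlapped (exact p = 0.3). On all transcripts, the exact p-values of these 3 ratios adjusted over the 5 were 0.25, 0.25 and 0.3. WT library 3 was the lowest WT library in all 5 ratios, and on all transcripts the groups overlapped in these 3.

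**Figure D4:**
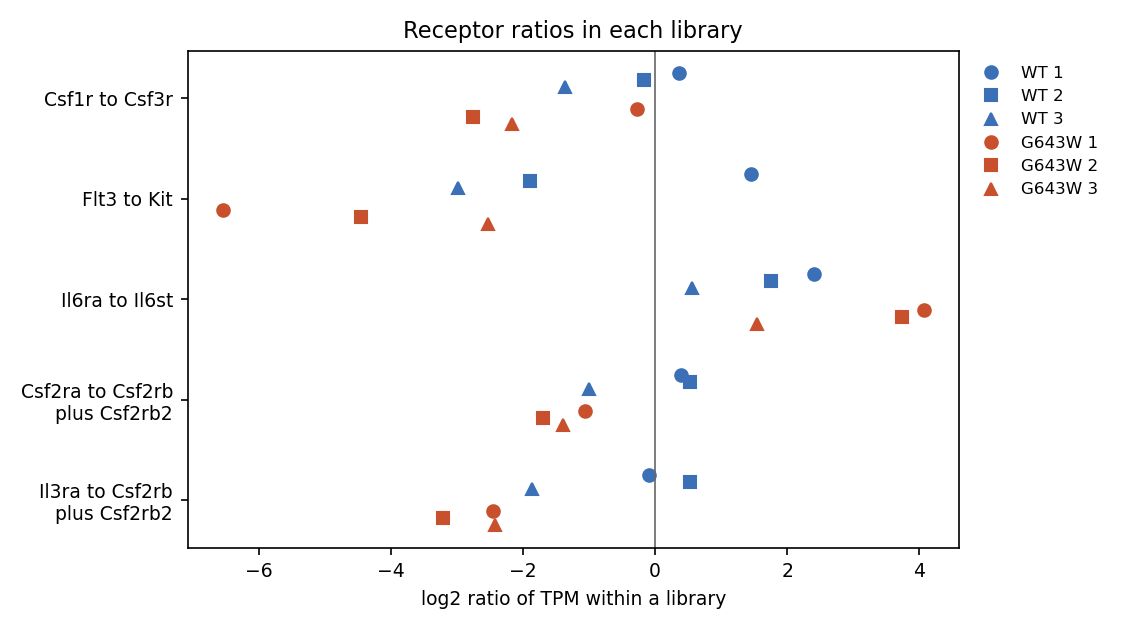
Log2 ratio of TPM between receptor genes within each library, with WT in blue, G643W in red and marker shape for the library number. The G643W points lie left of all WT points for Csf2ra and for Il3ra against the summed Csf2rb and Csf2rb2, and the groups overlap in the other 3 ratios.

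Some receptors followed each other across the libraries. The closest pair was Csf2ra and Il6ra, whose mean-centred log2 CPM differed by a root mean square of 0.198 over the 6 libraries, followed by Csf2rb and Csf3r at 0.332 and Il6ra and Il3ra at 0.352. The same measure over 9833 protein-coding genes with at least 5 CPM on average found the nearest profiles of 4 receptors. For Csf1r these were Eif2b3 at 0.046, Ppie at 0.097 and Slc26a6 at 0.123. Treml4 at 0.160, Zfp516 at 0.179 and Nbeal2 at 0.182 were nearest to Csf3r. For Kit they were Ccm2l at 0.285, Emid1 at 0.346 and Sh3pxd2b at 0.378. Nearest to Flt3 were Zcchc24 at 0.335, Abcb1b at 0.420 and S100a4 at 0.481. S100a4, for example, was at 703, 646 and 209 CPM in the WT libraries and at 93.6, 38.0 and 153 CPM in the G643W libraries. The measure grows with a gene's own spread, so its values do not rank how well different receptors or pairs were matched. The highest library was 26.7 times the lowest for Flt3 and 10.7 times for Kit, against 4.52 for Csf1r and 2.88 for Csf3r.

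Promoters of 8 of the 10 receptors, from 250 bases before to 50 after the gene start, were read from RefSeq (GRCm38.p6). Those of Csf1r and Csf2rb were not available and were not searched. A PU.1 core (GAGGAAG, either strand) was found in 4 of them, Csf3r, Csf2ra, Csf2rb2 and Kit, and in 13.5% of 27025 promoters. A C/EBP core (TTGCNNAA, either strand) was found in that of Il3ra alone and in 10.8% of promoters. Of the 8, Csf2rb2 alone held a STAT site (TTCNNNGAA, its own reverse complement), which 8.47% of promoters hold. None of the 8 held the RUNX core TGTGGT, found in 16.9% of promoters on either strand. Examples from Csf2rb2 and Il3ra, with the motif in capitals, are shown so that the matches can be seen in context, and say nothing of binding:
Csf2rb2, PU.1, chr15:78305874-78305898, minus strand: ctgtgtctgCTTCCTCcagagaagt
Csf2rb2, STAT, chr15:78305719-78305745, minus strand: tgtccacaaTTCTGAGAAgcaagcaaa
Il3ra, C/EBP, chr14:14346352-14346377, plus strand: ctcaggaagTTGCTCAAtctcgggac

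The genes that surround the receptors in their pathways were taken as 8 lists. Of 121 such genes 106 passed the filter and none passed the edgeR threshold, while DESeq2 called 3 of the 106 (Id1 higher, Il27ra and Irf8 lower; 2.07% of all genes). Among the ligands 7 of 15 passed the filter, with a median log2 difference of 0.12, which was 0.63 without WT library 1 and -0.12 without G643W library 1. The genes for GM-CSF, G-CSF, interleukin 3 and interleukin 6 did not pass it, nor did Kitl, which encodes stem cell factor. Csf1, which encodes M-CSF, was at 11.1 ± 9.84 CPM in WT and 5.57 ± 1.87 in G643W (log2 -1.0 ± 0.70), and Il27 at 4.14 ± 2.03 and 7.71 ± 4.19 CPM (log2 0.90 ± 0.63).

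Related receptors had 14 of 20 genes tested and a median of -0.46. Il27ra, a partner of gp130, was at 1.25, 1.09 and 1.13 CPM in the WT libraries and at 0.439, 0.18 and 0.445 CPM in the G643W libraries. It was lower in every G643W library, with a log2 difference of -1.71 ± 0.50 (edgeR adjusted p = 0.464, DESeq2 adjusted p = 0.0320). Il10ra, the ligand-binding chain for interleukin 10, was at 93.5 ± 59.5 and 31.8 ± 10.7 CPM (log2 -1.55 ± 0.48), also without overlap. The Janus kinases and STAT factors, 11 of 11 tested, had a median of 0.05 (-0.04 to 0.26 with 1 library left out). In this list Stat5a, which transmits GM-CSF and interleukin 3 signals, was at 59.4 ± 2.97 and 45.3 ± 8.55 CPM (log2 -0.39 ± 0.20), and Jak2, the kinase bound by Csf2rb, at 86.5 ± 16.4 and 121 ± 36.4 CPM (log2 0.48 ± 0.29).

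Feedback inhibitors, 20 of 20 tested, had a median of -0.09 (-0.16 to 0.06 with 1 library left out). The ubiquitin ligase gene Cblb was lower in every G643W library, at 29.99 ± 11.4 CPM in WT and 13.04 ± 2.74 in G643W (log2 -1.20 ± 0.33, edgeR adjusted p = 0.454). Socs6, of the suppressor of cytokine signalling family, was likewise lower in each, at 47.7 ± 11.0 and 24.3 ± 7.70 CPM (log2 -0.98 ± 0.30). Adaptors and proximal kinases, 20 of 20 tested, had a median of 0.13 (0.09 to 0.37), with Map2k1 at 99.9 ± 12.1 and 137 ± 28.0 CPM (log2 0.46 ± 0.23) and Shc1 at 115 ± 6.65 and 146 ± 15.5 CPM (log2 0.34 ± 0.19). Genes of receptor shedding and sorting, 8 of 8 tested, had a median of -0.06 (-0.14 to 0.13). In that list the protease gene Adam10 was at 154 ± 36.4 and 219 ± 36.1 CPM (log2 0.51 ± 0.26) and Adam17, which cleaves Csf1r, at 94.1 ± 12.6 and 77.7 ± 12.2 CPM (log2 -0.28 ± 0.21).

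Genes known as targets of these receptors, 13 of 13 tested, had a median of -0.75, with 3 positive and 10 negative differences. The median rested on WT library 1 and was 0.04 without it. Id1, whose product blocks helix-loop-helix transcription factors, was at 7.45, 7.09 and 16.6 CPM in the WT libraries and at 41.7, 51.2 and 40.6 CPM in the G643W libraries. The groups lay well apart, by 2.10 ± 0.38 on the log2 scale (edgeR adjusted p = 0.230, DESeq2 adjusted p = 0.000435). Bcl2l1, which encodes the survival factor Bcl-xL, was also higher in each G643W library, at 12.4 ± 2.86 CPM in WT and 25.1 ± 3.25 in G643W (log2 1.02 ± 0.27, edgeR adjusted p = 0.452).

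Transcription factors of the receptor genes, 13 of 14 tested, had a median of -0.24, which was 0.02 without WT library 3 and -0.65 without WT library 2. Runx1 was at 107, 98.1 and 100.2 CPM in the WT libraries and at 74.1, 55.3 and 50.3 CPM in the G643W libraries. Irf8, a factor of monocytes and dendritic cells, was at 215, 230 and 192 CPM in WT and at 109, 24.6 and 48.5 CPM in G643W. Both were lower in every G643W library, with log2 differences of -0.76 ± 0.21 for Runx1 and -1.81 ± 0.51 for Irf8 (edgeR adjusted p = 0.454 each). DESeq2 called Irf8 (adjusted p = 0.0433) and not Runx1 (adjusted p = 0.0982).

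Lists of cell type markers, with the receptors left out, moved beside several of these values. The 13 neutrophil markers, all above 1 CPM, summed to 1877, 9979 and 53710 CPM in WT libraries 1 to 3 and to 10090, 136900 and 74970 CPM in G643W libraries 1 to 3, with S100a9 and S100a8 the most abundant. WT library 3 and G643W libraries 2 and 3 were thus the high ones, as they were for Csf3r and Csf2rb. The 5 promyelocyte markers, led by Mpo and Prtn3, summed to 1579, 6141 and 9562 CPM in WT and to 12360, 1519 and 4974 CPM in G643W. They ordered the libraries within each group as Kit did. The 9 monocyte markers, led by Lyz2 and Ly6c2, ranged from 14320 to 17470 CPM in WT and from 7003 to 18010 CPM in G643W, sums that are mostly these 2 genes. With Csf1r itself included, 9 of the 10 log2 differences were negative, with a median of -0.98. Of all 20654 genes tested, 10486 were negative. F13a1 (-2.07 ± 0.56), Ccr2 (-1.33 ± 0.45) and Ms4a6c (-1.47 ± 0.51), named after their values were seen, had every G643W library below every WT library. This is a pattern of 8.89% of all genes. The rest of the list overlapped, with Lyz2 at -0.12 and Ly6c2 at 0.20. None of the 10 passed edgeR's test, and DESeq2 called F13a1 (adjusted p = 0.0263). Macrophage markers, led by Adgre1 and Vcam1, summed to between 296 and 572 CPM in WT and between 235 and 406 CPM in G643W. All 7 that passed the filter had negative differences, with a median of -1.28, and overlapping groups. The part of these cell types in the Csf1r difference was not tested.

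Lists of cells that are known for Flt3 or Kit came next. The 8 dendritic cell markers, led by Irf8 and Cd209a, summed to 274, 366 and 234 CPM in WT. In G643W they summed to 129, 46.5 and 76.1 CPM, without overlap. Irf8, which is also in the list of transcription factors, made up most of the sum in every library. Cd209a, Siglech and Batf3 were also lower in every G643W library, a pattern of 8.89% of all genes. Their edgeR log2 differences were -7.27 ± 1.16, -3.18 ± 0.69 and -4.23 ± 1.12, and none passed edgeR's test. DESeq2 called each of them (adjusted p = 4.51e-13, 0.000125 and 0.00137), where it called 1.27% of all genes lower. Zbtb46, Xcr1, Itgax and Clec9a overlapped between the groups. The 8 stem and progenitor markers, of which 3 passed 1 CPM in any library, summed to between 163 and 426 CPM in WT. In G643W they summed to between 40.6 and 134 CPM, also without overlap. Cd34 made up most of the sum in every library, and Ly6a added 142 CPM in WT library 1. Procr, under 1 CPM throughout, was higher in every G643W library. Mast cell and basophil markers ranged from 20.6 to 404 CPM in WT and from 7.39 to 66.6 CPM in G643W, and came mostly from Cpa3 in WT libraries 1 and 2. Of the 8 genes, Prss34 was at 0 in all libraries and Fcer1a, Tpsb2 and Cma1 were under 0.1 CPM, while Cpa3, Mcpt8, Ms4a2 and Gata2 each exceeded 1 CPM in at least 1 library. With the neutrophil level as a covariate the Flt3 difference was -2.74 (edgeR adjusted p = 0.604). The part of any cell type in the receptor differences was not tested.

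Among the remaining lists, erythroid sums were higher and stromal and endothelial sums lower in every G643W library, and the sums of the others overlapped. Pecam1 made up most of the stromal and endothelial sum in every library. The tested genes of that list had 3 positive and 3 negative log2 differences, with a median of -0.09, and Col1a1 was at 1.53 ± 0.86 with overlapping groups. Cd79b made up most of the B cell sum and Nkg7 most of the NK cell sum in every library. Summed B cell markers ranged from 34.9 to 39.9 CPM in WT and from 23.8 to 37.2 CPM in G643W, T cell markers from 1.67 to 8.85 and from 8.77 to 15.6, and NK cell markers from 12.8 to 133 and from 37.6 to 71.1. Erythroid markers ranged from 1.90 to 7.80 CPM in WT and from 10.7 to 26.6 CPM in G643W. Eosinophil markers ranged from 223 to 317 and from 264 to 342 CPM, megakaryocyte markers from 8.83 to 26.2 and from 6.30 to 13.2, and stromal and endothelial markers from 106 to 195 and from 61.7 to 105.

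**Figure D5:**
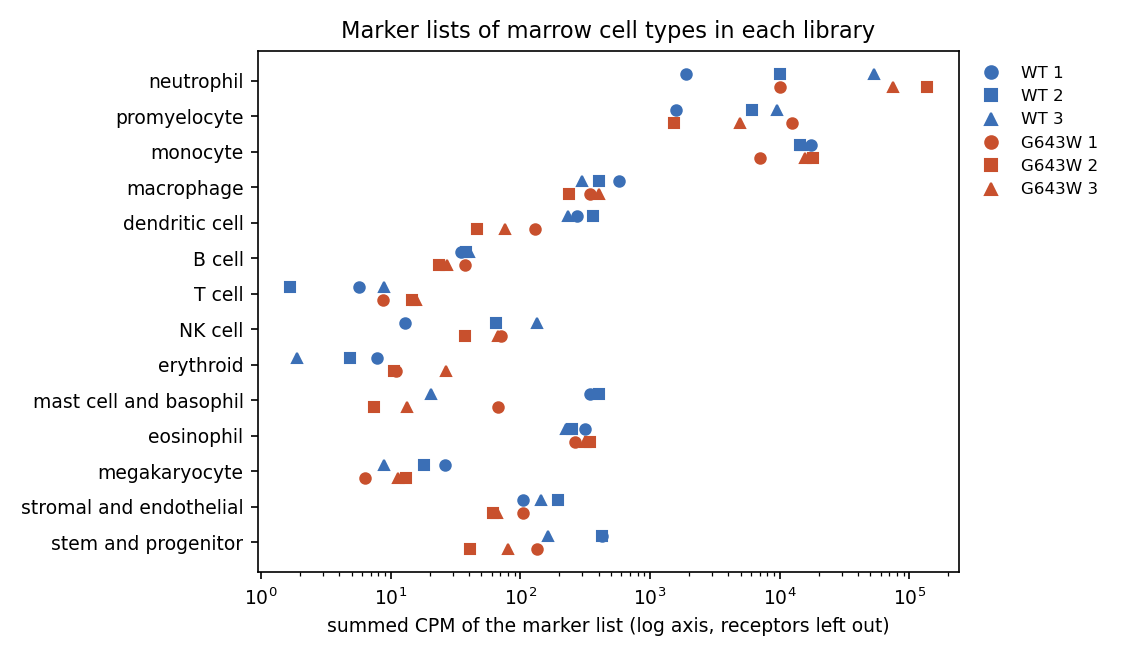
Summed CPM of each cell type marker list in each library on a log axis, with the receptor genes left out, WT in blue and G643W in red. Neutrophil sums span from 1877 to 136900 CPM and overlap between the groups. Dendritic cell sums (mostly Irf8) and stem and progenitor sums (mostly Cd34) are lower in all G643W libraries.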

How the data were processed

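Transcripts were quantified by the authors with Salmon 0.12.0 after bcl2fastq, with mm10 and GRCm38.p6 as builds, per the submitters' processing notes. The sources used here do not give Salmon's options, index or strand setting. The deposited tables hold, per the file headers, an estimated count for each transcript, which need not be whole, and its TPM. Library preparation used TruSeq V2, per the labels' protocols. Each table held 136288 transcripts, and the 136176 found in GENCODE M21 (GRCm38) were added up to 53458 genes. The 112 others, with no more than 0.0365% of any library's reads, were not used.

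Summed estimated counts were rounded, filtered with filterByExpr (minimum count 10) and TMM-scaled. The test was that of edgeR 4.0.16 in R 4.3.3 (glmQLFit and glmQLFTest, genotype only, two-sided). Benjamini-Hochberg adjustment ran over all 20654 genes, or over all 58839 transcripts tested, with a threshold of 0.05. The SE of a log2 difference is that difference divided by the square root of its F statistic. The biological coefficient of variation was 52.8%, and the procedure was tested on simulated counts. There it also called 9 of the 20454 unchanged genes. Beside these it called 0, 9, 15 and 31 of the 50 genes changed 2-fold, 4-fold, 8-fold and 16-fold. Each pair of libraries within a genotype differed by more than sampling noise.

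The receptors, the gene lists and the marker lists were chosen with earlier results of these data known, and support nothing beyond their own values. Of each pathway list the members past the threshold were named, or the 2 with the lowest p where none passed. Of each marker list the 2 most abundant genes could be named. The 3 nearest profiles were named for Csf1r, Csf3r, Kit and Flt3. Alternatives were no scaling or DESeq2 size factors, no filter, DESeq2 1.42.0, limma 3.58.1 on log2(TPM + 1) and log2(TPM + 0.1), the replicate number as a block, length-scaled counts, protein-coding genes alone and each library left out. The neutrophil covariate, the mean log2 CPM of the neutrophil marker list, and the ratios on coding transcripts of at least 1000 bases were chosen after seeing the data. Reads of other genes that share 31-base words with a receptor's main transcript (mostly Gm42809 for Il6ra, Gm48860 for Il3ra and Gm30655 for Csf3r, besides the Csf2rb pair) cannot be told apart from its own there.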

Additional observations from a re-analysis of the deposited data

How the results depend on the processing

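Over the whole table, 25 genes passed the threshold with edgeR. The count was 16 without scaling, 104 without the filter, 427 with DESeq2, 10 on length-scaled counts, 43 with limma on log2(TPM + 0.1), 2 among protein-coding genes alone, and from 0 to 16 with 1 library left out. Of the 10 receptor genes, 0 passed in the main test, 1 passed without the filter, 2 with DESeq2 and 0 with any library left out. Pathway genes went from 0 to 1 without the filter and to 3 with DESeq2, and receptor transcripts from 0 to 2 with DESeq2, which called 1.78% of all transcripts. The cause of these shifts was not tested.

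Same-numbered libraries of the 2 genotypes deviated from their group means with correlations of 0.112, -0.165 and 0.176, so the numbers were not taken as pairs. With the replicate number as a block, 0 genes passed over the whole table (1772 at an unadjusted p under 0.05), no receptor did, and the Kit difference was -0.02. Kit also reversed to -0.13 without WT library 1 and to -0.76 without G643W library 1, and ranged from -0.76 to 0.89 over the libraries left out. The other 9 receptors kept their direction in all 16 alternatives, with Flt3 from -3.75 to -1.63, Csf2rb2 from 1.12 to 2.00, Il3ra from -1.17 to -0.74, Il6ra from -0.63 to -0.35 and Csf3r from 0.03 to 0.99. The lowest adjusted p with 1 library left out was 0.141 for Flt3 and 0.0860 for Csf2rb2.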
